A study of Mus musculus with 12 samples.

Results

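Sprr1a codes for small proline-rich protein 1A. It was chosen by its symbol as the gene with the largest rise after transverse aortic constriction (TAC) on the control diet, and it is 1 of 18604 genes listed in any of the deposited tables. Because that contrast picked the gene, its values there, and the comparisons between diets that reuse those libraries, are given as a description with no test. TAC against sham surgery on the BCAA-free diet, which lacks the branched-chain amino acids, uses other libraries. It is the contrast in which Sprr1a was tested, with a limit given there.

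The libraries came from hearts of male C57Bl/6J mice aged 12 weeks. Mice were fed the BCAA-free diet, or a control diet whose content of these amino acids resembles that of ordinary chow, from 4 days ahead of the operation. The operation was sham surgery or TAC, a banding of the aortic arch that makes the left ventricle pump against a higher pressure, and hearts were collected 1 week afterwards. There were 4 groups of 3 libraries of polyadenylated RNA. The labels name no transgene and no drug. Whether the 3 libraries of a group came from separate animals is not stated there, and the p-values therefore speak only of the spread between these libraries, which may be technical.

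SPRR proteins are small, proline-rich substrates of transglutaminases and are cross-linked into the cornified envelope of squamous epithelia such as the epidermis. Outside epithelia, Sprr1a is known as a gene that cardiomyocytes switch on under mechanical stress and in response to cytokines signalling through gp130, the receptor subunit shared by the interleukin 6 family. It is also a classic regeneration-associated gene of injured peripheral neurons.

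Sprr1a (ENSMUSG00000050359) lies on the minus strand of chromosome 3 at 92483952 to 92485895 in GRCm38, within an array of 17 annotated SPRR genes that spans 92215799 to 92500493. Its single annotated transcript has 806 bases in 2 exons. Exon 1 (92485850 to 92485895) is 46 bases of untranslated leader. The whole coding sequence of 432 bases lies in exon 2 (92483952 to 92484711). The promoter is printed because the array holds a close relative, Sprr1b, and because Sprr1a is known as a stress-induced gene. The 250 bases before each RefSeq start, written 5′ to 3′ on the minus strand (RefSeq, GRCm38.p6), were at chr3:92485882-92486131 for Sprr1a and chr3:92438780-92439029 for Sprr1b. Capitals mark matches to the AP-1 motif TGANTCA and the TATA box TATAAA.
Sprr1a: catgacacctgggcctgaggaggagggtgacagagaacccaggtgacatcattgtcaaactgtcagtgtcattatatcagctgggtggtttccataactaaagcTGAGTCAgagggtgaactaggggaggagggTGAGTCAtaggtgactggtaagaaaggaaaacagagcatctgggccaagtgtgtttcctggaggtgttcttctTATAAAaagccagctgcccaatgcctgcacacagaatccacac
Sprr1b: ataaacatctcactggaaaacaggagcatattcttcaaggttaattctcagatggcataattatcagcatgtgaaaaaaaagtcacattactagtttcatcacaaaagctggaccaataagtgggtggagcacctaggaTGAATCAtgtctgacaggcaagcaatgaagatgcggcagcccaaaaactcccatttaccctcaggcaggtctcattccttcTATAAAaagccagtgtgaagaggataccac

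The Sprr1a sequence held 2 AP-1 matches, both TGAGTCA, at 146 to 140 and 116 to 110 bases before the RefSeq start. AP-1 is the Fos and Jun family of stress-responsive transcription factors. Its TATA match lay at 43 to 38 bases before that start, or 29 to 24 bases before the GENCODE start, which is 14 bases farther upstream. Sprr1b held 1 AP-1 match, TGAATCA, at 111 to 105 bases, and a TATA match at 30 to 25 bases. Over 32817 mouse promoters cut to the same 250 bases and searched on both strands, 6.75% held at least 1 AP-1 match, 0.338% held 2 or more, and 12.4% held TATAAA. The searched letters for C/EBP (TTGCNNAA), STAT (TTCNNNGAA), TEAD (GGAATG), ETS (ACTTCCT) and the CArG box were not in the Sprr1a window, and among these TEAD had 1 match in Sprr1b. The AP-1 and TATA matches did not overlap each other. These matches describe the letters of the window, and binding was not measured. Sprr1b was not analysed here.

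**Figure D1:**
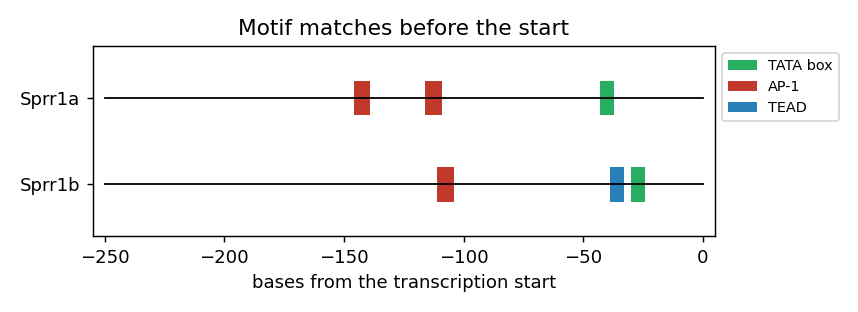
Positions of motif matches in the 250 bases before the RefSeq start of Sprr1a and Sprr1b, with the horizontal axis in bases from the start and coloured boxes for each motif. Sprr1a has 2 AP-1 boxes and 1 TATA box, and Sprr1b has 1 of each and a TEAD match.

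Each library held 74206246 to 110452636 reads. All 10 cardiomyocyte markers were present in every library, at a summed 62087 to 79935 CPM (counts per 1e6 reads). Of the 757 stretches of 50 bases in the Sprr1a transcript, 0 occurred in another annotated transcript, and 0 annotated genes overlapped it. Under the annotation used here its sequence is thus distinct from those of its relatives over that length. In heart tissue as a whole, fewer cells of a type and less RNA per cell cannot be told apart.

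Sprr1a was close to the detection limit in sham hearts and highest in TAC hearts on the control diet. Control diet sham libraries 1 to 3 gave 17, 24 and 18 reads, or 16.6, 25.7 and 14.4 normalized reads (size factors set jointly over the 12 libraries). BCAA-free sham libraries gave 11, 14 and 4 reads, or 11.2, 12.5 and 5.06 normalized reads. The 4 reads of BCAA-free sham 3 have a 95% Poisson interval of 1.09 to 10.2 reads, which covers counting error only.

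After TAC on the control diet the libraries gave 1430, 786 and 934 reads, or 1056, 800.0 and 783 normalized reads. After TAC on the BCAA-free diet they gave 48, 20 and 60 reads, or 56.5, 22.8 and 74.1 normalized reads. Library 2 of that group was its lowest, with a 95% Poisson interval of 12.2 to 30.9 reads, which does not reach the intervals of libraries 1 (35.4 to 63.6) and 3 (45.8 to 77.2).

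**Figure D2:**
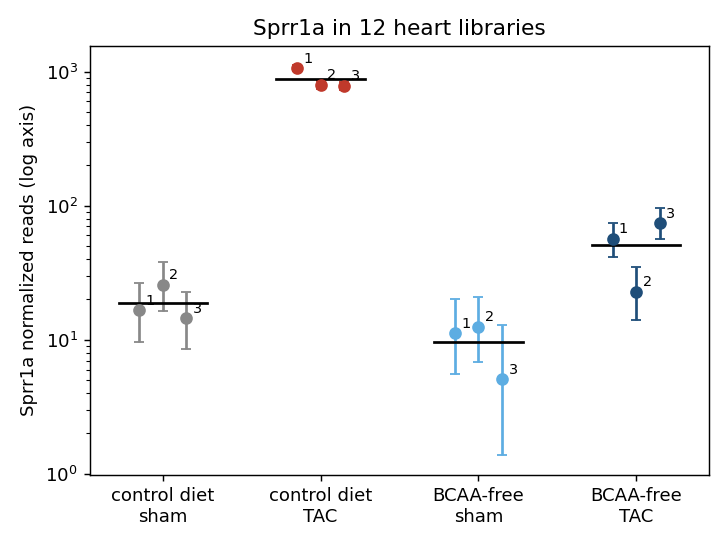
Sprr1a in each of the 12 libraries, on a log axis of normalized reads. Points are libraries with their replicate number, bars are 95% Poisson intervals of the reads, and horizontal lines are group means. The 3 control diet TAC libraries lie between 783 and 1056, above all others.

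Sham hearts averaged 9.57 ± 3.96 normalized reads on the BCAA-free diet and 18.9 ± 5.99 on the control diet (mean ± SD, n = 3). TAC hearts averaged 51.1 ± 26.1 on the BCAA-free diet and 880 ± 153 on the control diet. In that rising order, the sham groups of the 2 diets were separated by a factor of 1.16 between their nearest libraries, and 26.1% of genes had sham groups that did not overlap. Control diet sham and BCAA-free TAC overlapped, since BCAA-free TAC 2 at 22.8 lay below control diet sham 2 at 25.7. The lowest control diet TAC library was 10.6 times the highest BCAA-free TAC library. The coefficient of variation was 51.0% after TAC and 41.3% after sham surgery on the BCAA-free diet, against 17.4% and 31.7% on the control diet. It was thus lowest where Sprr1a was most abundant. Counting error weighs more at 4 to 60 reads per library than at 786 to 1430, and its part in these values was not tested.

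With TAC on the control diet the mean was 46.5 times that of sham, and the groups did not overlap, as in 34.8% of tested genes. On the log2(value + 1) scale the change was 5.49 ± 0.245 (SE), first of 18305 tested genes by rise, which is how the gene was picked. The genes just behind it were Cthrc1 at 5.28, C1qtnf3 at 4.47 and Cemip at 3.94. Cthrc1 codes for a secreted protein made by activated fibroblasts. Cthrc1 changed by 2.29 on the BCAA-free diet and C1qtnf3 by 0.23 ± 0.457 (SE), so the genes next to Sprr1a on one diet were far apart on the other.

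**Figure D3:**
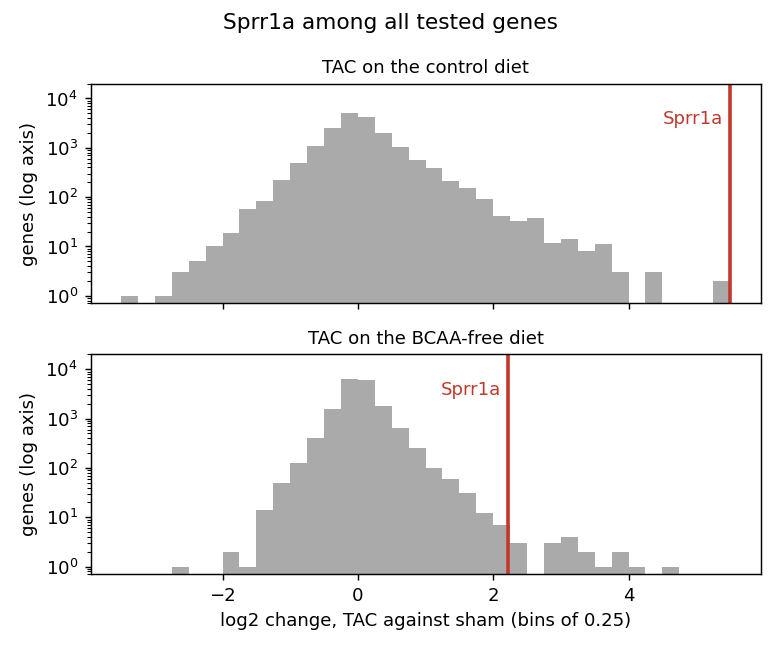
Number of tested genes (log axis) by log2 change with TAC in bins of 0.25, for the control diet above and the BCAA-free diet below, with Sprr1a marked by a line. Sprr1a stands first of 18305 genes at 5.49 in the upper panel and 18th of 17611 at 2.21 in the lower.

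With TAC on the BCAA-free diet Sprr1a rose by 2.21 ± 0.466 (SE) on the log2(value + 1) scale. The 95% interval was 1.20 to 3.22 (limma, Benjamini-Hochberg adjusted p = 0.0150). In that fit the sham mean, 8.60, lay under the filter of 10, so Sprr1a passed only through its TAC libraries. Without the filter the limma adjusted p was 0.0149, but listed genes had at least 61 reads over 6 libraries. These sham libraries held 29. As for Sprr2a3 below, the p-value therefore lends no support, and the rise is given as a description. All 3 TAC libraries lay above all 3 sham libraries, and the mean was 5.34 times higher. Here 28.1% of genes had groups that did not overlap. By size the rise was number 18 of 17611 tested genes, and number 11 of 583 called rises. The authors' deposited table gives a log2 change of 2.38 with an adjusted p of 0.000268. The call was lost without BCAA-free sham 3, the library with 4 reads (1.86, adjusted p = 0.0578), and without BCAA-free TAC 3 (1.87, adjusted p = 0.0728).

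Between diets, BCAA-free TAC hearts held 5.81% of the Sprr1a level of control diet TAC hearts, without overlap, as in 36.2% of tested genes. That is a log2 difference of -4.21 ± 0.366 (SE), and Sprr1a was number 2 of 18039 genes by fall. In sham hearts the difference was -0.96 ± 0.429 (SE). Whether the TAC response of Sprr1a differed between the diets was not tested, since such a test would use the libraries that picked the gene. The values side by side are 5.49 on the control diet and 2.21 on the BCAA-free diet.

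Several features of the libraries differed between groups or libraries, and they followed Sprr1a only in part. In BCAA-free TAC, libraries 1 and 3, higher in Sprr1a, held 63.6 and 76.1 CPM of the structured RNAs Rn7sk, Rmrp and Rpph1, against 7.79 in library 2, and control diet sham 2, the highest sham library in Sprr1a, held 115.5. Control diet TAC 1, the highest of all in Sprr1a, held 4.23. Summed fibroblast markers (9 of 9 listed) were at 2762 to 4964 CPM after TAC and 874 to 1115 after sham surgery on the control diet, and at 943 to 1198 and 712 to 801 on the BCAA-free diet. Their group means had the same order as those of Sprr1a. So had those of the summed macrophage, neutrophil, epicardial and mesothelial, and atrial cardiomyocyte markers. Those of the cardiomyocyte, endothelial and squamous epithelial markers had another order. The atrial sum in control diet TAC, 1625 to 2976 CPM, was mostly the natriuretic peptide Nppa (1438 to 2530), also a stressed cardiomyocyte gene. The order without Nppa was not computed. Neutrophil sums overlapped between TAC (3.03 to 4.53 CPM) and sham (2.06 to 4.03) on the control diet. There the log2 change was above 0 for 2 of 5 neutrophil markers. Summed epicardial and mesothelial markers were at 18.1 to 22.3 CPM in control diet TAC and at most 11.7 in any other library. Their members did not move together. Krt18 was at 5.07 to 8.03 CPM in control diet TAC and at most 1.23 elsewhere. Between diets in TAC hearts, 5 of the 8 members were higher on the BCAA-free diet (median log2 difference 0.84, against 0.02 over all genes). Of the 8, 2 were called higher and 3 lower there. Summed macrophage markers (10 of 10) were at 544 to 623 CPM in control diet TAC and at most 371 in any other library. Mitochondrial reads made up 17.9 to 19.9% of control diet TAC libraries and 21.8 to 27.1% of the others. The atrial light chain Myl7 was 1 of 6 listed atrial markers. It was at 88.7 to 112 CPM after TAC and 30.6 to 69.0 CPM after sham surgery on the BCAA-free diet. On the control diet its TAC (57.4 to 142) and sham (15.9 to 117) libraries overlapped. With TAC the log2 change was above 0 for 4 of 6 atrial markers on the control diet and 4 of 5 on the BCAA-free diet. Gpr22 went the other way on both (-1.05 ± 0.134 and -0.38 ± 0.273, SE), and Bmp10 on the control diet (-3.48 ± 1.47, SE). Krt18, Gpr22 and Bmp10 were named after their values were seen. The part of these features in the Sprr1a values was not tested.

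Sprr1a is best known from squamous epithelium. Of 16 markers of that tissue 5 were listed, at a summed 4.19 to 6.58 CPM over the TAC libraries and 4.27 to 11.5 CPM over the sham libraries. The highest control diet TAC library, at 6.58, lay within the range of control diet sham (4.49 to 11.5). Krt5, the basal keratin, had 0 reads in all 6 TAC libraries, which allows up to 0.0392 CPM in the shallowest of them. It had 153 reads in control diet sham 1 and 72 in BCAA-free sham 3, the sham libraries in which Krt14 was also highest (429 and 145 reads). BCAA-free sham 3 had the fewest Sprr1a reads of all. Sfn, an epithelial 14-3-3 protein, went the other way, at 2.33 to 2.90 CPM in control diet TAC and 1.38 to 1.86 in control diet sham, without overlap (log2 change 0.55 ± 0.184 (SE), limma adjusted p = 0.0797). After BCAA-free feeding its TAC and sham libraries overlapped. Krt10 and Trp63 overlapped between TAC and sham on each diet. The part of these markers in the Sprr1a values was not tested.

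Among the relatives of Sprr1a, Sprr2a3 was the other SPRR gene listed, in the table of TAC on the control diet alone, 192547 bases away. It had 1, 5 and 3 reads in sham and 32, 17 and 10 reads in TAC libraries, or 0.974, 5.36 and 2.41 against 23.6, 17.3 and 8.38 normalized reads. All TAC libraries were higher, with a change of 2.24 ± 0.592 (SE, limma adjusted p = 0.0349). Its mean over the 6 libraries, 10.7, passed the filter of 10 only through the TAC libraries. A gene admitted in that way could hardly show anything but a rise, so this p-value lends no support. The call was lost without control diet sham 1 or sham 3, with adjusted p up to 0.103. No adjusted p was available for it with DESeq2, or without control diet TAC 1 or TAC 2, which left 11 alternatives. Near-identical Sprr2a copies could share its reads. Gm9774, the nearest measured gene at 54529 bases, changed by -0.19 ± 0.256 on the control diet and -0.27 ± 0.343 on the BCAA-free diet (log2 ± SE). Loricrin (Lor), a major cornified envelope protein 400810 bases from Sprr1a, changed by 0.84 ± 0.274 on the control diet and 0.55 ± 0.400 on the BCAA-free diet (log2 ± SE, not called on either). On the other side of Sprr1a, Tchh, 956435 bases away, changed by -0.28 and -0.63. Next came S100a11 and S100a10, with 1.31 and 0.73 on the control diet and 0.58 and 0.43 on the BCAA-free diet.

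S100a11 and S100a10, small calcium-binding proteins, belong to a list of cornified envelope partners and transglutaminase substrates. Of 12 measured members 5 rose and 1 fell with TAC on the control diet (median 0.39, against -0.02 over all genes tested), where 9.17% of all genes were called higher, 5.64% lower and 14.8% in either direction. S100a11 was at 1983, 1521 and 1518 normalized reads in sham and 5261, 4128 and 3294 in TAC libraries. Anxa1, a calcium-dependent membrane-binding protein, rose by 1.14, Tgm2, the tissue transglutaminase, by 0.68, and the protease inhibitor Cstb by 0.40. Periplakin (Ppl), an envelope and junction protein, fell by 1.12. Cstb and Ppl were named after their values were seen, to complete the count. On the BCAA-free diet 3 rose and 1 fell of 12 (median 0.28, against 0.01 over all), where 3.31% of genes were called higher, 4.41% lower and 7.72% in either direction. These were S100a11, S100a10, Anxa1 (0.36) and, lower, the desmosomal plakin Dsp (-0.24). The calls of Anxa1 and Dsp on this diet, and that of S100a10 on the control diet, were lost in some fits without 1 library (adjusted p up to 0.118, 0.145 and 0.0587).

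Ligands that signal through gp130 rose in part. On the control diet 3 of 8 measured ligands rose (median 0.83), against 9.17% of all genes. Among them, interleukin 6 (Il6) was at 9.74, 4.29 and 11.2 normalized reads in sham and 48.0, 169 and 46.9 in TAC libraries. It rose by 3.06 (limma adjusted p = 0.0071). Its sham mean was under 10, so Il6 passed the filter of 10 only through the TAC libraries. Its p-value and its place in the count of 3 therefore lend no support. Leukemia inhibitory factor (Lif) rose by 1.42, and the call of Lif was lost in some fits without 1 library (adjusted p up to 0.0738). Of 6 measured ligands, Il6 not among them, 1 was called higher on the BCAA-free diet (median 0.12), against 3.31% of all genes. The change of Lif on that diet was 1.02 ± 0.338 (SE, limma adjusted p = 0.0871) and did not pass. Its TAC libraries there were at 30.6, 20.5 and 28.4 normalized reads, with BCAA-free TAC 2 again the lowest, and its sham libraries at 12.2, 13.4 and 11.4.

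Of 11 receptors, kinases and STAT factors of this pathway, 2 rose and 1 fell on the control diet (median 0.02), against 14.8% of all genes called in either direction. These were Stat3 (0.44), the oncostatin M receptor Osmr (0.52) and the kinase Jak1 (-0.35). Each of these calls was lost in fits without 1 library, with adjusted p up to 0.109, 0.0893 and 0.18. With TAC on the BCAA-free diet 1 of 11 fell, near the background of 7.72% called in either direction. It was gp130 itself (Il6st, -0.22), a call also lost in some such fits (adjusted p up to 0.126).

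Of 14 targets and feedback inhibitors of gp130 signalling, 9 rose on the control diet (median 0.79), against 9.17% of all genes. Timp1, an inhibitor of matrix proteases, was at 208, 123 and 181 normalized reads in sham and 1861, 1746 and 2361 in TAC libraries, and rose by 3.55. The serine protease inhibitor Serpina3n rose by 2.71, the feedback inhibitor Socs3 by 1.35 and the interleukin 4 receptor chain Il4ra by 1.03. Of the 14, 2 rose on the BCAA-free diet (median 0.24), against 3.31% of all genes, Timp1 by 2.19 and Serpina3n by 1.78, and the call of Serpina3n was lost in some fits without 1 library (adjusted p up to 0.0943). Socs3 (0.67) and Il4ra (0.25) did not pass there.

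AP-1 and ETS factors are known regulators of SPRR genes in epithelia. The list of AP-1 and ETS regulators also held the Krüppel-like factors Klf4 and Klf6, so its counts are not of AP-1 and ETS factors alone. Limma called 0 of its 13 measured members on the control diet (median 0.10), with 2 higher at an unadjusted p below 0.05, and edgeR and DESeq2 called 0. With TAC on the BCAA-free diet 1 of 13 fell, a share near the 7.72% of all genes called in either direction. It was Fosb (-0.88), a member of the Fos family. It was at 230, 400.4 and 292 normalized reads in sham and 138, 166 and 188 in TAC libraries, and its call was lost in some fits without 1 library (adjusted p up to 0.0735).

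Of 20 genes known from stressed cardiomyocytes 15 rose with TAC on the control diet (median 1.07), against 9.17% of all genes. Uchl1, a ubiquitin hydrolase, was at 709, 655 and 659 normalized reads in sham and 2815, 2341 and 1934 in TAC libraries, and rose by 1.78. The chaperone clusterin (Clu) rose by 1.67, natriuretic peptide B (Nppb) by 1.65 and the reticulon Rtn4 by 1.18. On the BCAA-free diet 9 of 20 rose (median 0.46), against 3.31% of all genes, and 5 to 14 did when 1 library was left out. The low end, 5, came without BCAA-free sham 3, and 6 came without sham 2 or TAC 3. The high end, 14, came without TAC 2. The stretch-responsive factor Ankrd1 rose by 1.27, the LIM proteins Fhl1 and Csrp3 by 0.48 and 0.44, and desmin (Des) by 0.41. Clu (0.35), Rtn4 (0.25) and Nppb (1.39) did not pass there.

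Nppa and Acta1, the natriuretic peptide and the skeletal actin most often used as markers of cardiac load, were chosen after their values were seen. Nppa rose by 2.84 on the control diet and 1.88 on the BCAA-free diet, and Acta1 by 2.53 ± 0.351 and 3.02 ± 0.334 (SE), a gap between diets that was not tested. The Acta1 calls on both diets and the Nppa call on the BCAA-free diet were lost in some fits without 1 library (adjusted p up to 0.0610, 0.0739 and 0.110). The change was larger on the control diet for 15 of 20 stressed cardiomyocyte genes, 12 of 14 gp130 targets, 5 of 6 ligands, 5 of 11 receptors and kinases and 7 of 12 envelope partners. It was also larger there for 10 of 13 AP-1 and ETS regulators and 13 of 16 regeneration-associated genes. The share over all genes was not computed, so these counts cannot be read as a trait of the lists. BCAA-free TAC 2, the library lowest in Sprr1a in its group, was also the lowest for 19 of 20 stressed cardiomyocyte genes (95.0%), against 32.8% of all genes.

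**Figure D4:**
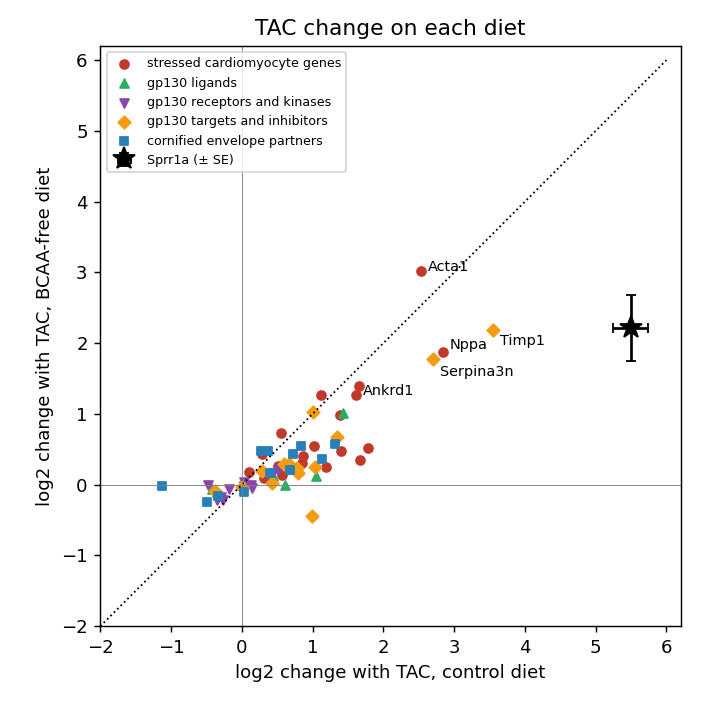
Log2 change with TAC on the control diet (horizontal) and on the BCAA-free diet (vertical) for 5 gene lists, with Sprr1a as a star with SE bars and a dotted line of equal change. Sprr1a, at 5.49 and 2.21, lies to the right of every list gene plotted and below the line, and Acta1, at 2.53 and 3.02, lies above it.

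Of 20 regeneration-associated genes of injured neurons, 6 rose on the control diet (median 0.39), against 9.17% of all genes. The neuronal tubulin Tubb3 rose by 1.85, Tubb2b by 1.55, the growth cone protein Basp1 by 1.41 and the hyaluronan receptor Cd44 by 0.64. On the BCAA-free diet 1 rose and 1 fell of 16 (median 0.14), against 7.72% of all genes called in either direction. The small heat shock protein Hspb1 rose by 0.44 and Gadd45a, a DNA damage response gene, fell by 0.28, a call lost in some fits without 1 library (adjusted p up to 0.159).

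Between diets in TAC hearts, where 6.23% of all genes were called higher on the BCAA-free diet, 10.5% lower and 16.8% in either direction, 8 of 20 stressed cardiomyocyte genes, 7 of 14 gp130 targets, 4 of 8 ligands, 4 of 12 envelope partners, 8 of 18 regeneration-associated genes, 3 of 13 AP-1 and ETS regulators and 2 of 11 receptors and kinases were lower on the BCAA-free diet. The AP-1 and ETS count ran from 0 to 5 when 1 library was left out, and so did that of receptors and kinases. Both were at 0 without BCAA-free TAC 2 and at 5 without control diet TAC 3. Among the 4 lower ligands, oncostatin M (Osm) passed the filter only through control diet TAC. It was at 2.35, 6.84 and 3.70 normalized reads in BCAA-free TAC, so its call lends no support. Among the ligands 1 was higher, the cardiotrophin Ctf1, and among the envelope partners 1, Ppl. Osm, Ctf1 and Ppl were named after their values were seen. Called members of the stressed cardiomyocyte list went from 8 to 5 without BCAA-free TAC 2 or TAC 3. Those of the gp130 targets went from 7 to 4 without BCAA-free TAC 2. Those of the ligands, in either direction, went from 5 to 3 without control diet TAC 1, to 2 without control diet TAC 2, BCAA-free TAC 1 or TAC 3, and to 1 without BCAA-free TAC 2. In sham hearts, where 1.27% were called higher, 2.27% lower and 3.54% in either direction, 1 of 20 stressed cardiomyocyte genes was lower, Acta1 at -1.55, and 2 of the list were called without control diet sham 1 or sham 2. Lower there were also 2 of 17 regeneration-associated genes (Klf7 and Smad1; 0 to 3 when 1 library was left out) and 1 of 13 AP-1 and ETS regulators (Ets1; 0 to 2), all named after their values were seen. These comparisons share libraries with the TAC contrasts above.

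The genes most like Sprr1a were ranked by Pearson's r of log2 levels over the 12 libraries among 12848 genes with a mean of at least 50 normalized reads. The first 8 were Cthrc1 (0.990), Thbs4 (0.986), Tnc (0.985), Col12a1 (0.985), Pmp22 (0.984), Lrp8 (0.983), Cercam (0.983) and Lox (0.983). The libraries fall into groups and share their depth and diet, so r mainly reflects the group means. In all, 162 genes had r above 0.95, and the median over all genes was -0.003. Cthrc1 averaged 41.6 normalized reads in sham and 1747 in TAC hearts on the control diet, and 25.1 and 129.7 on the BCAA-free diet. Thrombospondin 4 (Thbs4), a matricellular protein, averaged 707, 8863, 569 and 1644 in the same order. Tenascin C (Tnc), another, averaged 137, 2039, 61.1 and 273. Lysyl oxidase (Lox), which cross-links collagen, averaged 575, 7425, 504 and 1444.

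The 8 genes changed with TAC by 0.86 (Pmp22) to 5.28 (Cthrc1) on the control diet and by 0.29 (Pmp22) to 2.29 (Cthrc1) on the BCAA-free diet. By Spearman's rank correlation 1 of the first 8 genes was shared, Col12a1. When deviations from group means were compared instead, the first were transferrin (Trf, r = 0.951), Pcdhb7 (0.926) and Fzd9 (0.919), which are other genes than those above.

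**Figure D5:**
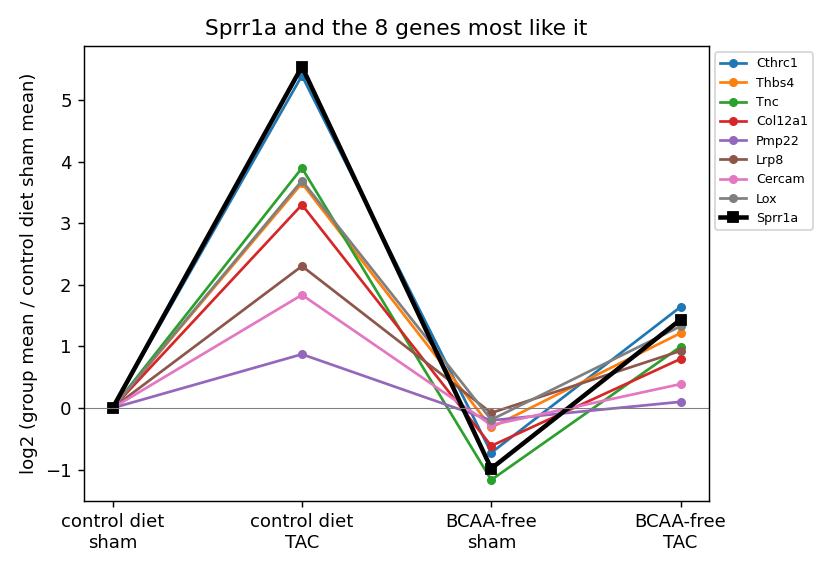
Group means of Sprr1a (black) and the 8 genes with the highest r over 12 libraries, as log2 of the ratio to the control diet sham mean. Lines join the 4 groups, sham before TAC, with the control diet on the left, and Sprr1a and the 8 genes are all highest in TAC hearts of the control diet.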

How the data were processed

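The submitters' processing notes list STAR 2.5.2b, Trimmomatic 0.36, DESeq2 and Subread 1.5.2, with GRCm38 (mm10) as the build. What each tool did, which annotation was used and whether counting used strand: not given in the sources used here. Per the file headers, the 4 deposited tables (TAC against sham on each diet, and the diets against each other in sham and in TAC hearts) give a signal per library (normalized counts), the authors' log2 fold changes and p-values. The deposited signal is reads divided by a size factor per library and table: multiplied back, 100% of values were whole reads to within 0.0001 read. For values with many reads this tolerance was widened in proportion to the count. The lowest sum of a listed gene over 6 libraries was 61 reads.

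Each pair of groups was fitted alone on log2(value + 1) with limma-trend (limma 3.58.1, R 4.3.3, robust empirical Bayes) after leaving out genes with a mean under 10. A gene was called at a Benjamini-Hochberg adjusted p below 0.05. Levels use median-of-ratios size factors over all 12 libraries. edgeR 4.0.16 and DESeq2 1.42.0 on the recovered reads, pseudocounts of 0.1 and 10, no low-value filter, TMM and joint scaling, a replicate block and leaving out each library were alternatives. The fits were tested on simulated data. Positions are from GENCODE M21 on GRCm38. Named genes were Sprr1a, measured SPRR genes, 3 measured protein-coding neighbours on each side, the next largest rises, the genes most like Sprr1a and up to 4 called members of each list by smallest p. A gene of the lists is not reported here by name and not plotted. Sprr1a and the lists were chosen with earlier results of these data known.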

Additional observations from a re-analysis of the deposited data

How the results depend on the processing

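The rise of Sprr1a with TAC on the BCAA-free diet kept its direction under every alternative run, with a log2 change of 1.86 to 2.70 when 1 library was left out and 1.502 with a pseudocount of 10. It passed the threshold in all settings except without BCAA-free sham 3 or TAC 3, and adjusted p ran from 0.000268 (DESeq2) to 0.0728. These p-values keep the limit given above, that Sprr1a passed the filter only through its TAC libraries. On the control diet the change of Sprr1a moved to 4.99 with that pseudocount. The number of called genes ran, when 1 library was left out, from 1354 to 4678 for TAC on the control diet, from 546 to 1257 for TAC on the BCAA-free diet, from 50 to 1071 for diet in sham hearts and from 1195 to 6025 for diet in TAC hearts. DESeq2 called 1530 genes for diet in sham hearts. Deviations from group means of libraries with the same replicate number correlated at -0.284 to 0.0363, and 0 of 24 libraries, counted per comparison, correlated best with their own number, so the numbers were not taken as pairs. With a replicate block Sprr1a had an adjusted p of 0.0378 on the BCAA-free diet, and calls fell to 623 for TAC on that diet and 276 for diet in sham hearts. The call of Sprr2a3 on the control diet was lost with the block (adjusted p = 0.0552). The cause of these shifts was not tested. Of 42 calls of named genes, 27 passed under all alternatives run, 15 were lost under at least 1 and 0 changed direction. Of 448 list counts recomputed, 364 stayed within 1.5 times and 84 did not. Depth limits Sprr1a in sham hearts, where 4 to 24 reads per library were counted.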
